A study of Arabidopsis thaliana with 8 samples.

Results

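The MIR159 and MIR319 precursors are the hairpin loci from which the microRNAs miR159 and miR319 are cut, and their small RNA counts in phloem exudate of Arabidopsis thaliana are described here paralog by paralog. The members were chosen by name, ath-MIR159a, ath-MIR159b, ath-MIR159c, ath-MIR319a, ath-MIR319b and ath-MIR319c, written below without the prefix, and are 6 of the 325 miRNA precursors among the 20347 loci listed. All plants were wild type of the accession Col-0, kept for 11 days on half-strength MS medium with iron. The -Fe group was then moved for 3 days to this medium without iron and the +Fe group for 3 days to fresh medium with iron. Exudate was collected in water from pooled cut rosettes after an EDTA step, and 4 biological replicates per group were sequenced as small RNA libraries. Each library is thus a pool of whole shoots bled at the hypocotyl, and fewer cells that release a miRNA cannot be told apart from less miRNA per cell.

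In Arabidopsis, miR159 binds transcripts of GAMYB-like MYB transcription factors, among them MYB33 and MYB65, and keeps these genes silent in vegetative tissue. miR319, first known from the JAW locus (MIR319a), binds transcripts of the TCP transcription factors TCP2, TCP3, TCP4, TCP10 and TCP24, which restrain cell division in growing leaves. The mature sequences of both families are close relatives that differ at few positions, yet each prefers its own target class. Within each family the mature sequences are nearly identical, so a read may align to more than one paralog. How such reads were placed is not given in the sources used here. The counts of single paralogs are therefore uncertain, and family sums are given beside them.

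The 8 libraries held between 10347644 and 14116739 counts, and 168 to 226 of the precursors had a count in a given library. Loci at 6 nuclear genes of leaf photosynthesis (the RBCS and LHCB1 genes) were counted in all 8 libraries, and their summed level was 116 to 212 CPM (counts per 1000000 counts of the library) in -Fe and 93.7 to 238 CPM in +Fe exudates. The locus at SUC2, the sucrose transporter of companion cells, had 13 counts, all in 2 of the -Fe libraries. The part of leaf cell RNA in the miRNA counts was not tested. Of the miRNAs known to travel in phloem, the 6 MIR395 precursors MIR395a to f were counted in all 8 libraries, and 4 of the 6 MIR399 precursors MIR399a to f had a count in some library but none in all 8.

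Values of single libraries are given below in the order of replicates 1, 2, 3 and 4 of each group. All 6 precursors had counts in all 8 libraries, and together they held 221701 counts, or 13.9% of all precursor counts (10.4% to 20.9% in single libraries). The MIR159 precursors made up nearly all of this, with 214469 counts against 7232 counts at the MIR319 precursors. Among the 325 precursors, MIR159a ranked 3 by mean CPM, MIR159b 8, MIR159c 20, MIR319b 31, MIR319a 47 and MIR319c 48. The order was the same per length of the hairpin, with ranks of 3, 11, 22, 35, 52 and 58.

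**Figure D1:**
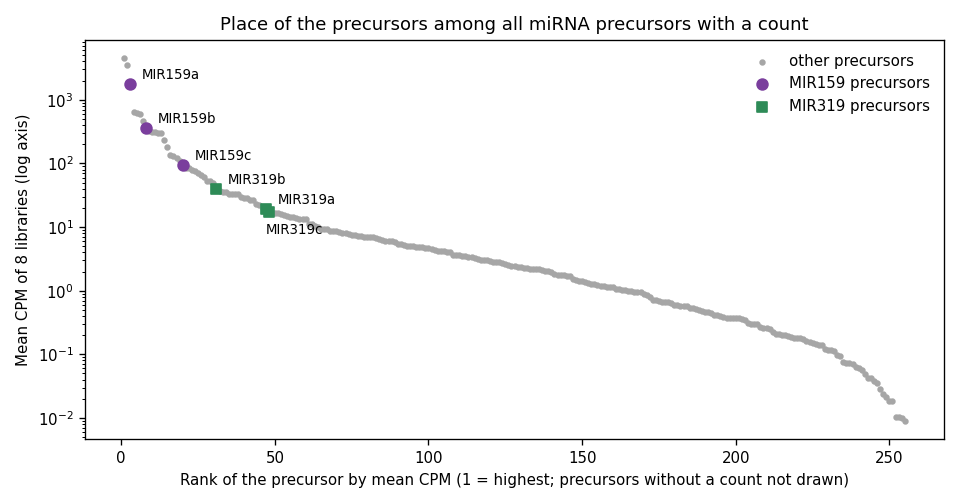
Mean CPM of 8 libraries (log axis) against the rank of each miRNA precursor with a count (grey points), with the MIR159 precursors as circles and the MIR319 precursors as squares. MIR159a stands at rank 3, MIR159b at rank 8 and MIR159c at rank 20, and the MIR319 precursors lie at ranks 31, 47 and 48.

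MIR159a (AT1G73687) lies on chromosome 1 from 27713233 to 27713416, as the deposited table gives it, and the labels name the build TAIR10. It is the main source of miR159 in Arabidopsis leaves together with MIR159b. Its counts were 29911, 21068, 13624 and 17649 in the -Fe libraries, against 32176, 17011, 19016 and 21234 in the +Fe libraries. In CPM these were 2825, 1662, 1149 and 1341 in -Fe and 2279, 1644, 1417 and 2032 in +Fe exudates. The groups overlapped, and both the lowest and the highest library were -Fe libraries, at replicate 3 and replicate 1.

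MIR159b (AT1G18075), on chromosome 1 from 6220645 to 6220840, had 569, 349, 216 and 258 CPM in the -Fe libraries, against 429, 318, 286 and 405 CPM in the +Fe libraries. The libraries stood in the same order as for MIR159a, with -Fe replicate 1 on top and -Fe replicate 3 at the bottom. MIR159c (AT2G46255), on chromosome 2 from 18994632 to 18994856, is the paralog with the fewest counts and had 147, 92.1, 58.6 and 72.3 CPM in -Fe and 107, 84.5, 70.02 and 119 CPM in +Fe exudates. Its groups overlapped as well, and its highest +Fe library was replicate 4 and not replicate 1.

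MIR319b (AT5G41663), on chromosome 5 from 16660468 to 16660639, was the MIR319 precursor with the most counts. It had 36.2, 42.8, 23.1 and 29.7 CPM in the -Fe libraries, against 28.3, 47.3, 53.1 and 57.1 CPM in the +Fe libraries. Of the 4 +Fe libraries, 3 lay above every -Fe library, and +Fe replicate 1 lay among the -Fe libraries. MIR319a (AT4G23713), on chromosome 4 from 12352956 to 12353131, is the locus activated in the jaw-D mutant with its crinkled leaves. It had 20.3, 18.9, 9.86 and 15.7 CPM in -Fe and 14.8, 30.6, 21.9 and 22.6 CPM in +Fe exudates. In these CPM of library totals, again +Fe replicates 2 to 4 lay above all -Fe libraries while +Fe replicate 1 did not. The order at MIR319a depends on the scaling. The TMM factors, by which edgeR scales the totals, were 1.14, 1.13 and 1.14 in +Fe replicates 2 to 4. They were 0.912 and 0.743 in -Fe replicates 1 and 4. A larger factor lowers the scaled level, and with them +Fe replicates 3 and 4 no longer lay above all -Fe libraries.

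MIR319c (AT2G40805), on chromosome 2 from 17029701 to 17029899, was counted 243, 201, 130 and 184 times in the -Fe libraries, against 216, 141, 162 and 331 times in the +Fe libraries. In CPM these were 22.9, 15.9, 10.96 and 13.98 in -Fe and 15.3, 13.6, 12.1 and 31.7 in +Fe exudates. Here +Fe replicate 4 stood above the other libraries of its group, which lay within the range of -Fe.

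**Figure D2:**
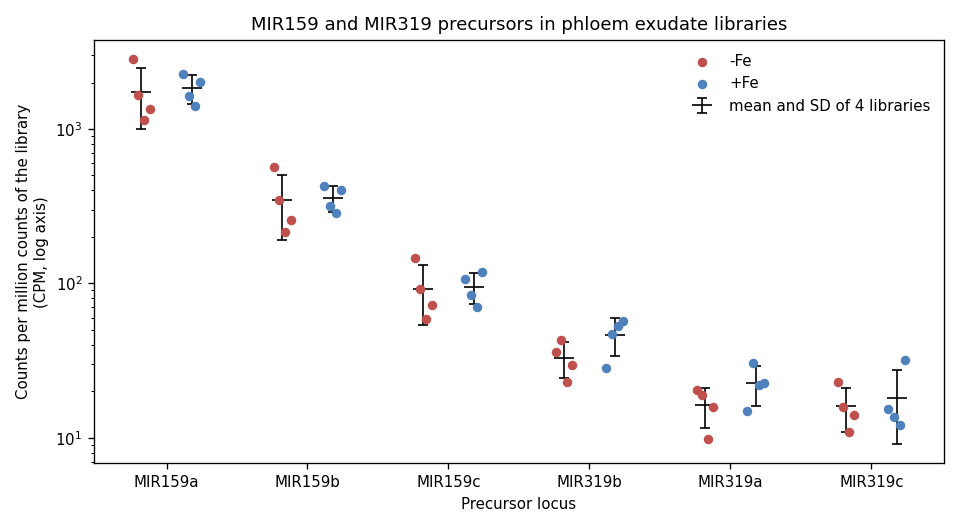
CPM (log axis) of each precursor in every library, with -Fe libraries left and +Fe libraries right of each tick, and the mean and SD of 4 libraries in black. The groups overlap at all 6 precursors. In these CPM of library totals, without TMM scaling, 3 of the 4 +Fe libraries lie above the -Fe libraries at MIR319b and MIR319a.

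Scaled to the length of the hairpin, MIR159a averaged 975 ± 302 CPM per 100 nt (SD, n = 8 libraries), MIR159b 181 ± 57.4, MIR159c 41.7 ± 12.997, MIR319b 23.1 ± 7.18, MIR319a 11.0 ± 3.52 and MIR319c 8.57 ± 3.48. Within the same library, MIR159a was 5.07- to 5.66-fold above MIR159b, and MIR159b 3.91- to 4.69-fold above MIR159c, without overlap of their ranges. MIR159c was above MIR319b in all 8 libraries, by 1.01-fold to 3.11-fold, and MIR319b above MIR319a in all 8, by 1.58-fold to 2.59-fold. Each of these 4 steps gave p = 0.00781 by an exact sign-flip permutation test over the 8 libraries, which is the smallest p it can give. For steps within a family the test covers the counts as they were placed. A fixed rule for placing reads shared by paralogs could give the same order in every library, and its part was not tested. MIR319a and MIR319c did not differ beyond their spread. Per length, MIR319a was higher in 7 of the 8 libraries, by 1.298-fold on average (p = 0.0703 from the same exact permutation test). In counts not scaled to length, the ratio of MIR319c to MIR319a ran from 0.445 to 1.40.

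Whether the precursors differ between exudates of iron-deficient and iron-sufficient plants was tested with edgeR's quasi-likelihood test, fitted over the 17722 loci with at least 10 counts in total, a filter that all 6 precursors passed in either group. No precursor was called (0 of 6) at a Benjamini-Hochberg adjusted p under 0.1 with a log2 fold change of 0.5 or more either way, where 0.0% of all loci were called. At an unadjusted p under 0.05 none of the 6 passed either, where 6.69% of all loci and 6.01% of the 233 tested precursors did. DESeq2 called 34 of the 17722 loci, and none of the 6 was among them. At so small a share, 0 of 6 tells little about the precursors. CPM did not overlap between the groups at 2.96% of all loci, at 2.15% of the tested precursors and at none of the 6 precursors.

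MIR159a averaged 1744 ± 751 CPM in -Fe and 1843 ± 386 CPM in +Fe exudates (SD, n = 4 each). Its fitted log2 fold change was 0.11 ± 0.27 (SE), with a 95% interval that runs from 0.740-fold to 1.57-fold (edgeR, adjusted p = 0.998). MIR159b averaged 348 ± 158 CPM in -Fe and 360 ± 68.4 CPM in +Fe exudates, with a log2 fold change of 0.14 ± 0.26 (adjusted p = 0.998). MIR159c averaged 92.5 ± 38.9 CPM in -Fe and 95.05 ± 21.9 CPM in +Fe exudates, with a log2 fold change of 0.16 ± 0.26 (adjusted p = 0.998). The fitted changes of the MIR159 precursors are slightly positive while their mean CPM are slightly lower in -Fe exudates. The TMM factors that scale the totals in edgeR lay between 0.743 and 1.17 in -Fe and between 0.908 and 1.14 in +Fe libraries. With library totals alone the log2 fold changes of MIR159a, MIR159b and MIR159c were -0.080, -0.046 and -0.039, and the median of all loci then moved to -0.12, against 0.07 with TMM.

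MIR319b averaged 32.9 ± 8.45 CPM in -Fe and 46.5 ± 12.7 CPM in +Fe exudates (SD, n = 4 each). Its log2 fold change of -0.27 ± 0.24 (SE) was the one with the smallest p among the 6 precursors (edgeR, Benjamini-Hochberg adjusted p = 0.991), and its 95% interval runs from 0.589-fold to 1.17-fold. MIR319a averaged 16.2 ± 4.64 CPM in -Fe and 22.5 ± 6.47 CPM in +Fe exudates, with a log2 fold change of -0.23 ± 0.29 and a 95% interval from 0.566-fold to 1.28-fold. MIR319c averaged 15.9 ± 5.09 CPM in -Fe and 18.2 ± 9.10 CPM in +Fe exudates, with a log2 fold change of 0.038 ± 0.33. With library totals alone the log2 fold changes were -0.50 for MIR319b, -0.47 for MIR319a and -0.19 for MIR319c, and none of the 3 was called. The median log2 fold change was 0.14 for the MIR159 precursors, -0.23 for the MIR319 precursors, 0.07 for all 6, 0.07 for all loci tested and 0.00 for the 64 precursors with a mean of at least 10 CPM. Over the 6 precursors the 95% intervals reached down to 0.566-fold, at MIR319a, and up to 1.64-fold, at MIR319c, and changes within them were not resolved with 4 libraries per group.

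**Figure D3:**
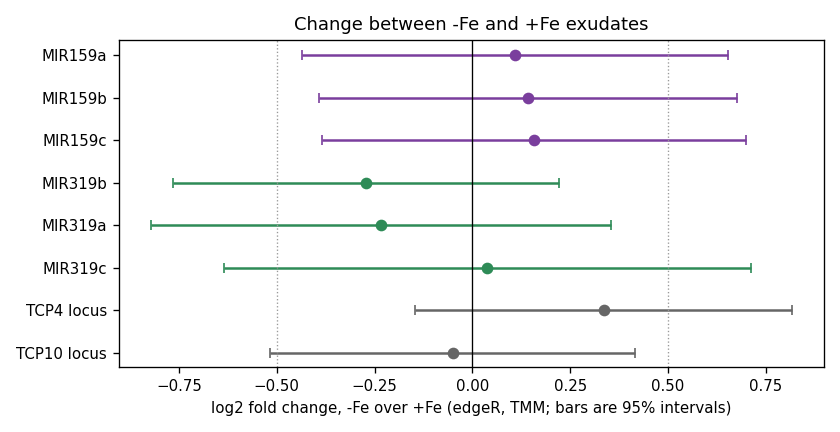
Fitted log2 fold change of -Fe over +Fe exudates (edgeR with TMM) for the 6 precursors and for the small RNA loci at TCP4 and TCP10, with 95% intervals as bars and dotted lines at the log2 fold change of 0.5 used for calls. All 8 intervals include 0.

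As families, the MIR159 precursors summed to 3541, 2103, 1424 and 1671 CPM in the -Fe libraries, against 2816, 2046, 1773 and 2555 CPM in the +Fe libraries. The mean difference of -Fe minus +Fe was -113 CPM (p = 0.857 by an exact permutation test, two-sided, over 70 splits), and 183 CPM with TMM-scaled totals. The difference turned positive when -Fe replicate 3 was left out, at 141 CPM, and likewise at 58.6 CPM for -Fe replicate 4 and at 60.2 CPM for +Fe replicate 1. The MIR319 precursors summed to 79.4, 77.6, 43.9 and 59.4 CPM in -Fe and 58.4, 91.5, 87.1 and 111 CPM in +Fe exudates. Their mean was 65.1 ± 16.7 CPM in -Fe and 87.1 ± 21.8 CPM in +Fe exudates (SD, n = 4 each), a difference of -22.0 CPM that did not pass the same exact permutation test (p = 0.171). With TMM-scaled totals the difference was -9.88 CPM (p = 0.457 from the same exact permutation test). With single libraries left out it ranged from -31.6 CPM without +Fe replicate 1 (p = 0.0571, exact permutation test) to -13.9 CPM without +Fe replicate 4 (p = 0.314), and it was -15.0 CPM without -Fe replicate 3.

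In both groups replicate 1 had the highest summed MIR159 level, and in +Fe it also had the lowest summed MIR319 level. The counts at the MIR319 precursors were thus 2.24%, 3.69%, 3.09% and 3.55% of those at the MIR159 precursors in the -Fe libraries, against 2.08%, 4.47%, 4.91% and 4.36% in the +Fe libraries. Both replicate 1 libraries were lowest in their group. The log2 of this ratio differed by -0.28 between -Fe and +Fe (p = 0.40, exact permutation test). With single libraries left out this difference ranged from -0.57 without +Fe replicate 1 (p = 0.0571, exact permutation test) to -0.13 without -Fe replicate 1 (p = 0.771), and it was -0.15 without +Fe replicate 3. The labels do not say that libraries of the same number were grown or prepared together. Across the 8 libraries the family sums were not tightly related on the log2 scale (Pearson r = 0.43, permutation p = 0.284; Spearman rho = 0.31, permutation p = 0.462; Benjamini-Hochberg adjusted p = 0.471 and 0.613 over 16 pairs). Without -Fe replicates 1 and 3, r was 0.09. Within the -Fe libraries alone r was 0.83, and within the +Fe libraries alone it was -0.37.

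**Figure D4:**
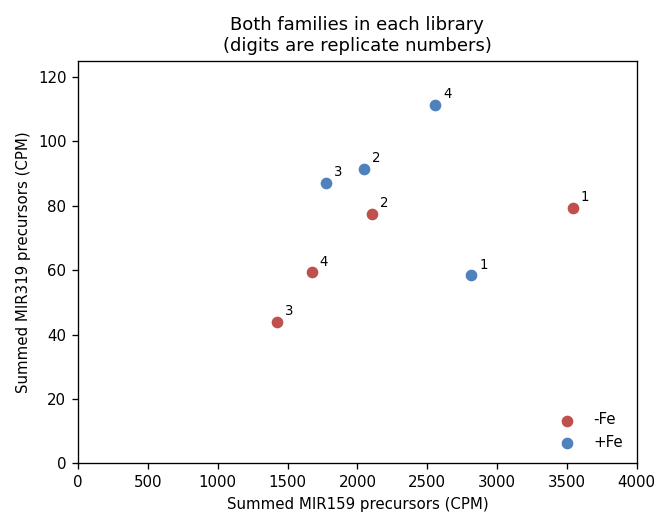
Summed CPM of the MIR319 precursors against summed CPM of the MIR159 precursors in each library, with -Fe and +Fe libraries in 2 colours and replicate numbers beside the points. Both replicate 1 libraries lie to the right, at 3541 CPM (-Fe) and 2816 CPM (+Fe) of MIR159, with 79.4 and 58.4 CPM of MIR319.

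Within the MIR159 family the division of counts among the paralogs hardly varied. MIR159a held 80.1% ± 0.631 (SD, n = 8) of the family's counts, MIR159b 15.8% ± 0.491 and MIR159c 4.19% ± 0.263, although the summed level differed 2.49-fold between the lowest and the highest library. The ratio of MIR159b to MIR159a was 0.202, 0.210, 0.188 and 0.193 in the -Fe libraries, against 0.188, 0.193, 0.202 and 0.199 in the +Fe libraries. Its log2 had an SD of 0.055 over the 8 libraries, where counting error alone gives 0.025. The ratio of MIR159c to MIR159a had an SD of 0.098 on the log2 scale, where counting error alone gives 0.046.

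Neither ratio passed the test between -Fe and +Fe exudates, with log2 differences of 0.017 (p = 0.743, exact permutation test) and 0.047 (p = 0.571 from the same test). Against the other 63 precursors with a mean of at least 10 CPM, MIR159a kept its steadiest ratio with MIR159b and the next steadiest with MIR159c, while the median SD over the 63 was 0.506. Such steady ratios were not confined to this family. Among the 30 pairs of equally numbered precursors at this level whose counts were not identical, MIR159a with b ranked 3, MIR159b with c 5 and MIR159a with c 6 by smallest SD, after MIR398b with c and MIR166a with e. Whether reads placed at several paralogs hold these ratios steady was not tested.

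Within the MIR319 family, with its lower counts, the shares had larger SDs. MIR319b held 52.0% ± 4.63 (SD, n = 8) of the family's counts, MIR319a 25.4% ± 3.82 and MIR319c 22.6% ± 5.77. MIR319b and MIR319a moved together across the libraries (Pearson r = 0.86, permutation p = 0.00424; Spearman rho = 0.90, permutation p = 0.00456; adjusted p = 0.0170 and 0.0146 over 16 pairs), and r was 0.93 without -Fe replicate 3 and +Fe replicate 2. The log2 ratio of MIR319b to MIR319a had an SD of 0.250, where counting error alone gives 0.121. It differed by -0.0070 between -Fe and +Fe exudates (p = 0.971, exact permutation test). Such a ratio was not unusual. Among the 30 pairs of equally numbered precursors, MIR319b with a ranked 16 by smallest SD, MIR319b with c 27 and MIR319a with c 29. The next steadiest ratio of MIR319b was with MIR8165, a precursor of another number (SD 0.275). Whether reads placed at several paralogs make MIR319b and MIR319a move together was not tested.

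MIR319c departed from MIR319a and MIR319b over the 8 libraries. The values below differ between the groups, but each rests on 4 libraries and the difference between -Fe and +Fe was not tested. The Pearson r of MIR319c with MIR319a and MIR319b was 0.88 and 0.71 within -Fe, against -0.037 and 0.32 within +Fe libraries. The SD of its log2 ratio to MIR319a was 0.220 in -Fe and 0.770 in +Fe libraries. Its ratio to MIR319a was 1.13, 0.838, 1.11 and 0.889 in the -Fe libraries, against 1.03, 0.445, 0.551 and 1.40 in the +Fe libraries, and its log2 SD of 0.557 was 3.84 times what counting error gives. The +Fe libraries spanned the -Fe libraries on both sides, and the log2 difference of 0.35 was within the spread (p = 0.40, exact permutation test). With single libraries left out it ranged from 0.083 without +Fe replicate 2 to 0.63 without +Fe replicate 4 (p = 0.857 and 0.114, exact permutation test), and it was 0.19 without +Fe replicate 3. Across the 8 libraries MIR319c had a Pearson r of 0.37 with MIR319a (permutation p = 0.363; Spearman rho = 0.29, permutation p = 0.501; adjusted p = 0.479 and 0.613 over 16 pairs).

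**Figure D5:**
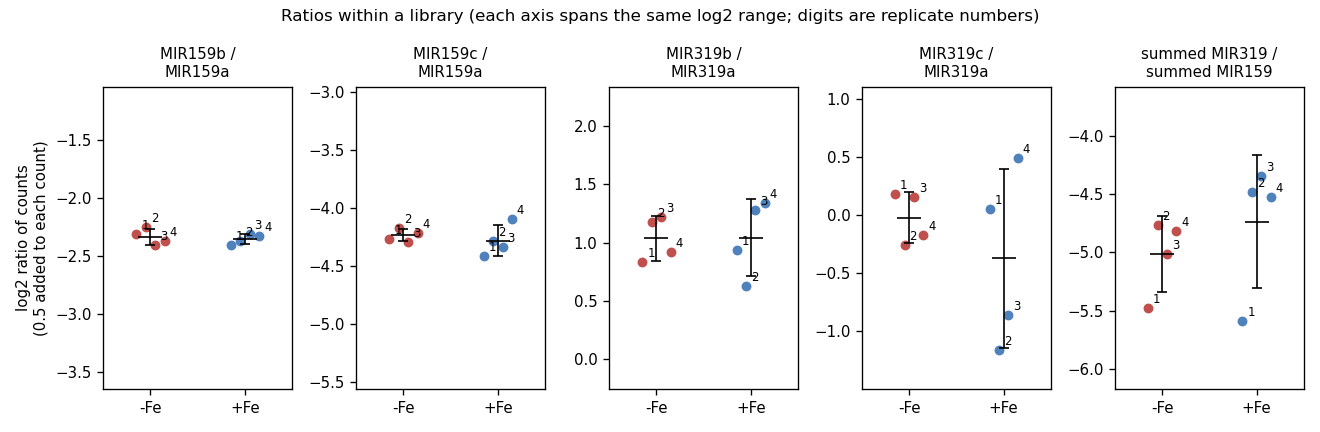
log2 ratios of counts within each library for 4 pairs of paralogs and for the family sums, with -Fe left and +Fe right, replicate numbers beside the points, and the mean and SD of 4 libraries in black, on axes of equal log2 range. The MIR159 ratios lie in narrow bands, the ratio of MIR319c to MIR319a spreads from 0.445 to 1.40, and both replicate 1 libraries are lowest in the ratio of MIR319 to MIR159.

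Among the 58 other precursors with a mean of at least 10 CPM, those most like the summed MIR159 level by Pearson correlation of log2(CPM + 1) over the 8 libraries were MIR5644 (r = 0.81), MIR393b (0.78), whose miRNA binds transcripts of the TIR1 and AFB auxin receptors, and MIR161 (0.78), whose miRNAs bind transcripts of PPR proteins. Most like the summed MIR319 level were MIR408 (r = 0.89), a copper-responsive precursor whose miRNA binds transcripts of copper proteins, and MIR781a and MIR781b (0.83 each), which overlap and have identical counts. By Spearman correlation 4 of these 6 remained among the 3 highest of their family, while MIR393b ranked 10 (rho = 0.60) and MIR408 ranked 6 (rho = 0.71). They were picked as the highest of 58 and share the library totals with the families, so the values are descriptions without a test.

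Each of the 6 precursors also overlaps a second listed locus with the same or nearly the same counts. At MIR159c, MIR319a, MIR319b and MIR319c the counts were equal in all 8 libraries. The second locus at MIR159a is 1231 nt long and held 2 counts more than the precursor, and that at MIR159b is 390 nt long and held 12 more. Small RNA counts outside the hairpins were therefore close to absent within these stretches, and the same reads appear at both loci.

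Small RNA counts at the target genes of the 2 families were also looked up, from a list of 8 MYB and 5 TCP genes. Of the 13 genes, 6 overlapped a listed locus: MYB33, the best known miR159 target, and all 5 TCP genes. Of these 6 loci 0 were called, and 1, at TCP24, had an unadjusted p under 0.05 (edgeR, Benjamini-Hochberg adjusted p = 0.645), where 6.69% of all loci did. It had 22 counts, 18 of them in -Fe replicate 2 and 4 in -Fe replicate 3, and 40.6% of its length lies in TCP24. The locus at MYB33 had 37 counts, but only 38.3% of its length lies in MYB33 and it also overlaps the protein-coding gene AT5G06110. The locus at TCP2 had 62 counts and that at TCP3 169 over the 8 libraries. Only 3 of the 13 genes, TCP2, TCP3 and TCP4, held at least 50% of the length of their locus.

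TCP4, whose product acts in leaf growth and maturation, stood apart from the other targets. The locus inside it, on chromosome 3 from 5061821 to 5063583, held 18607 counts and ranked 113 among all 20347 loci. It had 317, 171, 187 and 142 CPM in the -Fe libraries, against 179, 178, 171 and 223 CPM in the +Fe libraries. The highest library was -Fe replicate 1, which was also the highest for MIR159a, and the groups overlapped. The summed level of the MIR319 precursors, whose miRNA binds TCP4 transcripts, was highest in +Fe replicate 4, which was also the highest +Fe library at TCP4. Whether the TCP4 locus follows either family was not tested. The log2 fold change of the TCP4 locus was 0.34 ± 0.23 (SE; edgeR, Benjamini-Hochberg adjusted p = 0.887). Per length it averaged 11.1 CPM per 100 nt, against 11.0 CPM per 100 nt at MIR319a. The 2 loci are of unlike length, 1763 nt against 176 nt, and MIR319a held only 1835 counts. Strand and read length were not analysed here, so the table does not show what kind of fragments these are. The locus at TCP10 held 4009 counts, with 35.7, 39.2, 44.5 and 32.3 CPM in -Fe and 29.0, 56.0, 50.5 and 49.2 CPM in +Fe exudates, but only 22.4% of its length lies in TCP10 and it also overlaps a pseudogene.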

How the data were processed

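Small RNA counts from exudates were grouped by the sample titles into 4 -Fe and 4 +Fe libraries. The authors trimmed adapters (Cutadapt, all lengths kept) and used ShortStack for alignment and quantification; the values they deposited are raw counts of reads at each locus. The labels name the build TAIR10, and tool versions are not given in the sources used here. The deposited sum column was not analysed, and 0 library columns were left out. Total counts ranged from 10347644 to 14116739, so a count of 0 allows up to 3 counts, or 0.213 to 0.290 CPM, for counting error only, since reads without molecular identifiers are not independent molecules.

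CPM were computed from library totals. Loci with at least 10 counts were tested with edgeR 4.0.16 (R 4.3.3), condition only, TMM scaling. Alternatives were DESeq2 1.42.0, other scalings and filters, a replicate block, and leaving out each library. Standard errors and 95% intervals come from the F statistic. Sums and ratios (0.5 added to each count) were compared with exact permutation tests over 70 splits, whose smallest p is 0.0286. The tests were checked on simulated data. Gene names and overlaps (at least 1 nt) were taken from RefSeq genes of assembly TAIR10.1, which lists the 6 precursors at starts that differ by 0 or 1 nt. The named loci are the 6 members, overlapping loci, 13 target genes and the 3 most alike precursors per family. The members and lists were chosen with earlier results of these data known. Replicates are separate biological replicates by their titles.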

Additional observations from a re-analysis of the deposited data

Results flagged for a closer look

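In groups of 4 libraries, a library was singled out where its gap to the nearest other library exceeded Dixon's 95% critical share of the range of its group, which chance gives in about 1 of 20 groups. Of 30 groups looked at, 3 had such a library. MIR319c in +Fe replicate 4 had 31.7 CPM, above the other +Fe libraries. The log2 ratio of summed MIR319 to summed MIR159 was -5.59 in +Fe replicate 1, below the other +Fe libraries. The small RNA locus at TCP4 had 223 CPM in +Fe replicate 4, above the other +Fe libraries.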

How the results depend on the processing

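None of the 6 precursors was called under DESeq2, library totals, DESeq2's size factors, either other filter, the replicate block or with any library left out. The number of loci called was 34 with DESeq2, 3 with the replicate number as a block, between 0 and 1 with each library left out (1 without +Fe replicate 2), and 1186 at an unadjusted p under 0.05. Same-numbered libraries correlated by -0.0019 to 0.049 in their deviations from the group means over all loci tested, and 4 of the 8 libraries correlated best with their own number. Over the 64 precursors with a mean of at least 10 CPM, same-numbered libraries correlated by 0.091 to 0.30 and other pairs by -0.32 to 0.21, with 3 of 4 same-numbered pairs over 0.1 and 7 of the 8 libraries best with their own number. This is a hint of pairing from the data and not from the design, and since not every pair was over 0.1 the numbers were not taken as pairs. With the replicate block, exact sign-flip permutation tests of the differences of the sums gave p = 0.75 for MIR159 and 0.375 for MIR319. With 4 pairs this test cannot give a p below 0.125, so it could not pass 0.05. In the edgeR fit with the block, no call of a precursor changed. With library totals in edgeR, the log2 fold changes of MIR159a (-0.080), MIR159b (-0.046), MIR159c (-0.039) and MIR319c (-0.19) changed sign, and the median of all loci moved to -0.12. The summed MIR159 difference also turned positive per 1000000 precursor counts (7181) and with TMM-scaled totals (183 CPM). With each library left out, it ranged from -565 to 141 CPM, the log2 ratio of MIR159b to MIR159a from -0.011 to 0.041, that of MIR319b to MIR319a from -0.15 to 0.091, and the log2 fold changes of MIR159a from -0.24 to 0.34, MIR159b from -0.22 to 0.34, MIR159c from -0.17 to 0.34 and MIR319c from -0.20 to 0.39. MIR319a and MIR319b were negative under each of these alternatives, from -0.47 to -0.04 and from -0.50 to -0.12. The cause of these sign changes was not tested. With 4 libraries per group, changes within the 95% intervals of the fits could not be resolved.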

Other observations

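The following values were chosen after the data were seen. MIR319c had a steadier ratio to MIR159c than to the members of its own family, a difference that was not tested. Its Pearson r was also 0.72 with MIR159a and 0.74 with MIR159b. By smallest SD of the log2 ratio to MIR159a, MIR319c (0.356) ranked 11 of 63 precursors. Precursors of other families, such as MIR5644 (0.260) and MIR161 (0.292), ranked before MIR319c. Its log2 ratio to MIR159c had an SD of 0.272 over the 8 libraries, against 0.557 for its ratio to MIR319a and 0.508 for its ratio to MIR319b. MIR319a and MIR319b, in contrast, had SDs of 0.506 and 0.535 in their ratios to MIR159c. The counts at MIR319c were 15.6%, 17.2%, 18.7% and 19.3% of those at MIR159c in the -Fe libraries, against 14.3%, 16.1%, 17.2% and 26.7% in the +Fe libraries, in the order of replicates. The Pearson r of MIR319c with MIR159c was 0.84 (permutation p = 0.00618; Spearman rho = 0.93, permutation p = 0.00223; adjusted p = 0.0198 and 0.00893 over 16 pairs), and 0.81 without -Fe replicates 1 and 3. These p-values, like those of the other pairs, are against no correlation at all, while precursors share the library totals.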
